A study of Mus musculus with 288 samples.

Results

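Tcap and 5 regulators of muscle identity and muscle loss (Myod1, Fbxo32, Trim63, Mstn and Fbxo21) were followed over 2 days in skeletal muscle, in heart and in 10 other mouse tissues. They were chosen by name, with earlier results of these data known, as the genes whose probe sets carried these single symbols. Each of the 6 had 1 probe set, and they are 6 of the 19938 genes measured by a probe set with 1 symbol. The probe sets were 10380887 (Tcap), 10553256 (Myod1), 10428796 (Fbxo32), 10508953 (Trim63), 10346250 (Mstn) and 10524941 (Fbxo21).

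The series holds 288 Affymetrix arrays, 24 for each of skeletal muscle, heart, aorta, both adipose tissues (brown and white), liver, kidney, adrenal gland, lung, and the brain regions hypothalamus, brainstem and cerebellum. All groups were C57/BL6 mice given 1 week of 12 h light and 12 h dark and then kept in darkness, and circadian time (CT) counts hours in which CT0 and CT24 are the start of the former light phase. Organs were taken every 2 h from CT18 to CT64. Each array carried RNA pooled from 3 mice, and each tissue had 1 array per time, so there were no replicates and no untreated group. The labels used here give neither the age of the mice nor which skeletal muscle was taken. With no replicates, the p-values of waves below weigh the size of a fitted daily wave against the scatter of pools around it. The number of arrays limits their precision.

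Telethonin, the product of Tcap, joins the ends of titin molecules at the Z-disc of the sarcomere. MYOD1 is a transcription factor that commits cells to the skeletal muscle fate. Atrogin-1 (Fbxo32) and MuRF1 (Trim63) are ubiquitin ligases that mark muscle proteins for breakdown when FOXO factors or glucocorticoids act on muscle. Fbxo21 encodes a further F-box subunit of ubiquitin ligases, which is present in many tissues and has been tied to muscle loss after denervation. Myostatin (Mstn) is a secreted protein of the TGF-beta family that is made by skeletal muscle and limits its growth.

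RefSeq promoters (build GRCm38.p6) were matched for 3 of the 6 genes, Trim63, Mstn and Fbxo21. The 250 bases before the start site are shown for Trim63, which holds motifs of its known regulators, and for Fbxo21, the gene with a daily wave in the most tissues. Both lie on the plus strand, Trim63 at chr4:134314870-134315119 and Fbxo21 at chr5:117976520-117976769. Capitals mark matches to the motifs searched.
Trim63: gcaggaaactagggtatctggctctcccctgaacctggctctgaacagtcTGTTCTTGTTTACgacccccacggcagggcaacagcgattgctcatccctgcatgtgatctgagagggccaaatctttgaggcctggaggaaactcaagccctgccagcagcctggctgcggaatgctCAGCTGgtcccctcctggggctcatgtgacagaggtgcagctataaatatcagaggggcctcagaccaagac
Fbxo21: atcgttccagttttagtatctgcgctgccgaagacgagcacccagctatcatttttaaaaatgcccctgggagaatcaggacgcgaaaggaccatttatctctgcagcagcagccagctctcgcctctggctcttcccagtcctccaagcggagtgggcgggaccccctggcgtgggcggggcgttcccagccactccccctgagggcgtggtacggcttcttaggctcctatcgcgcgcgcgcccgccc
Both strands were searched for 6 motifs. These were the clock E-box CACGTG, the MyoD-type E-box CAGCTG, the D-box TTATGTAA, the ROR half-site AGGTCA, the forkhead motif GTAAACA and the glucocorticoid half-site AGAACA. In the Trim63 promoter the glucocorticoid half-site, 200 to 195 bases before the start, and the forkhead motif, 194 to 188 bases before it, adjoined each other on the minus strand without sharing a base. The MyoD-type E-box lay 72 to 67 bases before the start of Trim63. None of the 6 motifs was found in these windows of Fbxo21 or Mstn. Of 32851 promoters of the same length, 16.1% held the glucocorticoid half-site, 3.17% the forkhead motif, 13% the MyoD-type E-box, 6.02% the clock E-box, 14% the ROR half-site and 0.819% the D-box. GC content was 56.8% for Trim63 and 62% for Fbxo21. A match describes the letters and is not a bound site.

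The labelled tissues carried their own markers. The mean of 12 skeletal muscle markers lay between 13.42 and 13.55 (log2 intensity) on the skeletal muscle arrays and between 7.26 and 8.37 on the heart arrays. The mean of 12 heart muscle markers lay between 11.52 and 12.41 in heart. On 4 skeletal muscle arrays a marker list stood apart, CT22, CT24, CT42 and CT46, with lymphocyte marker means of 6.82 to 7.30 against a tissue median of 5.63. The heart array at CT26 stood apart with a hepatocyte marker mean of 10.89 against a median of 6.16, and the one at CT52 with a kidney tubule marker mean of 7.05 against 6.04. Other arrays stood apart in adrenal gland (3), brown adipose (1), hypothalamus (2), kidney (1), liver (1) and white adipose (5). In bulk tissue, fewer cells of a type and less RNA per cell cannot be told apart.

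Tcap varied with time of day in both muscles, and by more in heart than in skeletal muscle. In heart its log2 intensity ran from 9.28 at CT24 through a median of 10.34 to 11.08 at CT36. It was low at CT20 to CT24 (9.28 to 9.44) and again at CT42 to CT50 (9.52 to 9.66), and high at CT34 and CT36 (11.05 and 11.08) and at CT56 to CT60 (11.02 on each array). Arrays taken 24 h apart differed by a median of 0.13 and by at most 0.63, between CT28 and CT52. A fitted 24 h wave spanned 3.33-fold from trough to peak (95% interval 2.88 to 3.85), peaked at CT9.71 (standard error, SE, 0.224 h) and took up 91.8% of the variance. By limma's moderated F test the adjusted p was 9.24e-12 (Benjamini-Hochberg over all genes), and a wave is called where this p is under 0.05. Without the 2 heart arrays that stood apart the fold was 3.33 (adjusted p = 3.84e-15).

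In skeletal muscle Tcap ran from 10.89 at CT24 through a median of 11.34 to 11.61 at CT52. The lowest arrays were CT22 and CT24 (10.92 and 10.89) on the first day and CT50 (10.99) on the second, while every array from CT52 to CT64 lay between 11.46 and 11.61. The fitted wave was 1.44-fold (1.29 to 1.60) with its peak at CT11.1 (SE 0.55 h, adjusted p = 0.000196), and it took up 66.5% of the variance. Without the 4 arrays that stood apart the fold was 1.35 (adjusted p = 0.00873). The wave was not called on CT42 to CT64 alone, where 12 arrays gave a fold of 1.45 (adjusted p = 0.0527, range over 14 alternatives 7.78e-05 to 0.0527). The wave of Tcap differed between skeletal muscle and heart (interaction of tissue and wave in 1 limma fit to 288 arrays, adjusted p = 5.97e-08), with a peak 1.42 h later in skeletal muscle (SE 0.594 h).

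Myod1 varied in skeletal muscle and had no called wave in heart. In skeletal muscle it ran from 8.06 at CT54 through a median of 8.65 to 9.41 at CT18. Values of 8.89 to 9.15 held from CT38 to CT50 and values of 8.06 to 8.29 from CT52 to CT56 followed directly. Arrays 24 h apart differed by a median of 0.25 and by up to 0.72, between CT24 and CT48. On the second day values stepped from 8.93 at CT50 to 8.29 at CT52. On the first day they were already low at CT24 (8.32) and CT26 (8.42), so the 2 days did not repeat each other there. The wave was 1.79-fold (1.52 to 2.11) and peaked at CT18.2 (SE 0.526 h, adjusted p = 0.000107). It was called under all 14 alternatives (adjusted p 2.15e-05 to 0.0452). In heart Myod1 lay between 5.92 and 6.49 with a fold of 1.05 (0.951 to 1.16, adjusted p = 0.827). Its mean there, 6.18, lay inside the range of 5.94 to 6.69 over the other 10 tissues. The wave differed between both tissues (adjusted p = 9.51e-09).

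**Figure D1:**
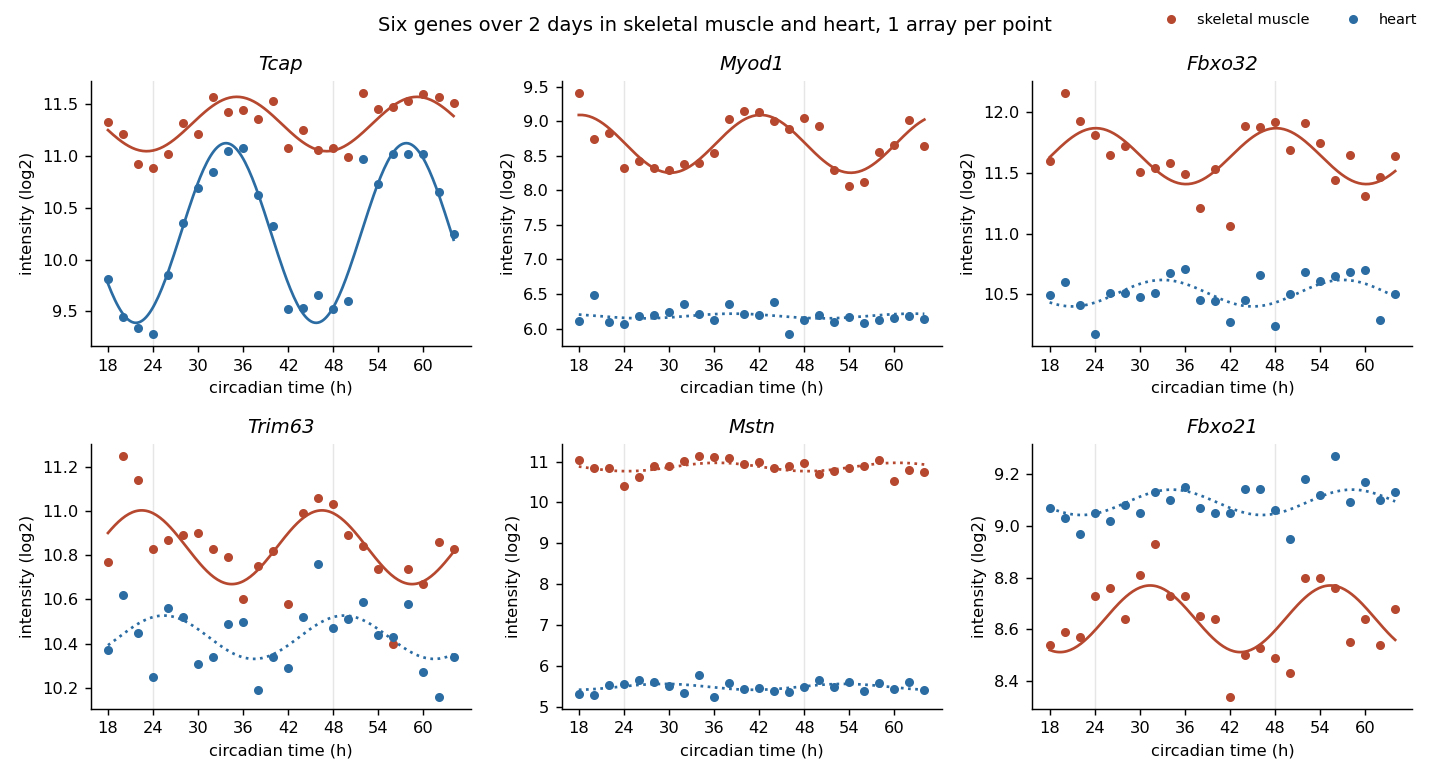
Log2 intensity (vertical axis) of the 6 genes against circadian time in h (horizontal axis) in skeletal muscle and heart, 1 point per array. Lines are the fitted 24 h waves, solid where called and dotted where not, and grey lines mark CT24 and CT48. Tcap in heart moves between 9.28 and 11.08, and Myod1 (5.92 to 6.49) and Mstn (5.26 to 5.80) in heart have no called wave.

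Fbxo32, the gene of atrogin-1, had its fitted peak in skeletal muscle near the end of the former night. It ran from 11.06 at CT42 through a median of 11.64 to 12.16 at CT20. Arrays 24 h apart had their lowest mean at CT18 and CT42 (11.33) and their highest at the next times, CT20 and CT44 (12.02). The arrays from CT44 to CT48 held 11.88 to 11.92 and CT52 held 11.91, while CT38 (11.21), CT42 (11.06) and CT60 (11.31) were lowest. The 24 h wave was 1.38-fold (1.19 to 1.60), peaked at CT0.188 (SE 0.843 h) and took up 44.8% of the variance (adjusted p = 0.0161). In heart it lay between 10.17 and 10.71 with a median of 10.51, and the fold was 1.16 (1.05 to 1.29, peak CT9.05, adjusted p = 0.144). In the settings run, the heart wave passed only when the CT46 array was left out (fold 1.20, adjusted p = 0.0443). The waves differed between both tissues (adjusted p = 0.0157), and the fitted peak in skeletal muscle was 8.86 h earlier (SE 1.53 h), although the heart wave itself was not called. In skeletal muscle the call was lost on either day alone (fold 1.40 on each, adjusted p = 0.156 and 0.236) and with lymphocyte (fold 1.43, 0.066) or slow fibre (fold 1.36, 0.0957) markers as a covariate, in an overall range of 0.00927 to 0.236.

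Trim63, the gene of MuRF1, peaked near Fbxo32 in skeletal muscle. It ran from 10.40 at CT56 through a median of 10.83 to 11.25 at CT20, and it was again high at CT46 and CT48 (11.06 and 11.03). The wave was 1.26-fold (1.13 to 1.41) with a peak at CT22.5 (SE 0.872 h, adjusted p = 0.0214). In heart Trim63 lay between 10.16 and 10.76 with a median of 10.44, and the fold of 1.14 (1.03 to 1.27, adjusted p = 0.208) was not called. The difference between both tissues did not pass (adjusted p = 0.669). In skeletal muscle 6 of 14 alternatives ended the call (adjusted p 0.0114 to 0.37), among them the rank test (0.0714) and a straight line as covariate (0.0702). Leaving out the CT22 or the CT46 array ended it too (0.0622 and 0.0514).

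Levels of Fbxo32 and Trim63 moved together across arrays in both muscles. In skeletal muscle Pearson's r was 0.77 (permutation p = 0.00045) and Spearman's rho 0.73 (permutation p = 0.0012) over 24 arrays, each p adjusted over the 30 pairs of these genes in both tissues. Without the 2 arrays farthest from the median of Fbxo32, r was 0.67. Both genes share the 24 h wave there. After the wave was removed, r was 0.66 (adjusted permutation p = 0.0096) and rho 0.47 (0.093), and r fell to 0.32 without the 2 farthest arrays, so that relation rests on those arrays. In heart, where neither wave was called, r was 0.54 (0.0404) and rho 0.51 (0.0617), and after the wave was removed r was 0.85 and rho 0.83 (3e-04 for each, the smallest that 100000 permutations can give over 30 pairs), with r of 0.78 without the 2 farthest arrays. Arrays of a tissue share the time course and its normalization, so they are not independent draws.

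Among these genes, the one most opposed to Myod1 in skeletal muscle was Fbxo21. Their r was -0.77 (adjusted permutation p = 0.00045) and rho -0.80 (3e-04), and r was -0.77 without the 2 arrays farthest from the median of Myod1. After the wave was removed r was -0.58 (0.0314), rho was -0.52 (0.0793) and r without 2 arrays was -0.40. Fbxo21 itself ran from 8.34 at CT42 through a median of 8.64 to 8.93 at CT32 in skeletal muscle. Its wave was 1.20-fold (1.09 to 1.31) with a peak at CT7.40 (SE 0.923 h, adjusted p = 0.0316). In heart it lay between 8.95 and 9.27 with a fold of 1.07 (1.01 to 1.13, adjusted p = 0.294), and the difference between both tissues did not pass (adjusted p = 0.453). Of 14 alternatives 8 ended the call in skeletal muscle (adjusted p 0.00785 to 0.377). It was lost without the 4 arrays that stood apart (fold 1.18, adjusted p = 0.111) and when any of CT22, CT30, CT32, CT42, CT44, CT46, CT52 or CT54 was left out (up to 0.0858).

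Mstn showed no called wave in any of the 12 tissues. In skeletal muscle it ran from 10.41 at CT24 through a median of 10.89 to 11.14 at CT34, with a fold of 1.15 (1.01 to 1.31, peak CT12.4, adjusted p = 0.424). On the first day alone, CT18 to CT40, the fold was 1.39 (1.22 to 1.59) and passed (adjusted p = 0.0464), while over the other alternatives the adjusted p reached 0.915. The CT36 and CT60 arrays, 24 h apart, held 11.10 and 10.52, so the 2 days did not repeat each other there. In heart Mstn lay between 5.26 and 5.80 (fold 1.10, 0.999 to 1.22, adjusted p = 0.433). The test of a difference between both tissues did not pass (adjusted p = 0.502). By limma's unadjusted p under 0.05, Mstn passed in 2 of 12 tissues, and by the rank test in 0 after adjustment and 2 before. The share of all genes under these unadjusted p-values is not given here.

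Counted together, 5 of the 6 genes were called in skeletal muscle, where 5.12% of all genes were, and 1 of 6 in heart, where 8.64% were. The 6 were chosen with earlier results of these data known, so the counts beside all genes are a description. The wave differed between both tissues for 3 of 6 genes, against 6.75% of all genes, and among the 12 tissues for 6 of 6, against 49.6%. A straight line over the 2 days was called for 0 of 6 genes in skeletal muscle (1.74% of all genes) and 0 of 6 in heart (0%). A 12 h wave was called for 0 of 6 in skeletal muscle (7.45%) and 0 of 6 in heart (0.00502%). By the unadjusted p of the same limma tests none of the 6 lay under 0.05 in these 4 tests, while 2838 genes did for the line in heart.

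Markers of other cell types moved with time in skeletal muscle, where 5.12% of all genes were called. Of 9 slow fibre markers, such as Myh7, the slow myosin heavy chain, 8 were called with a median fold of 3.62, and the list mean ran from 9.24 to 11.75 with a fitted peak at CT9.11. It was low at CT18 to CT24 (9.52 to 9.81), at CT36 (9.24) and at CT42 to CT48 (9.27 to 9.48), and 10.56 to 11.75 on all other arrays. Of 10 lymphocyte markers 7 were called (median fold 2.12, list mean 5.50 to 7.30, fitted peak CT21.2). Of the 12 skeletal muscle markers 0 were called (limma, 2 at an unadjusted p under 0.05), and of 9 satellite cell markers 1 was, Sdc4. In heart 0 of 9 slow fibre markers and 0 of 10 lymphocyte markers were called by limma (0 and 1 unadjusted), against 8.64% of all genes.

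Fits that held a marker mean as a covariate gave the members' waves beside these lists. With slow fibre markers Tcap kept a fold of 1.37 (1.20 to 1.56, adjusted p = 0.0106) and Myod1 1.78 (1.46 to 2.17, adjusted p = 0.0013). With lymphocyte markers the fold of Tcap was 1.31 (1.15 to 1.50, adjusted p = 0.0316) and that of Myod1 2.00 (1.62 to 2.47, adjusted p = 0.000148). Both genes stayed called. For Trim63 the folds were 1.33 (adjusted p = 0.0552) and 1.32 (0.135), and for Fbxo21 they were 1.18 (0.303) and 1.17 (0.377), in the same order. Fewer genes of any kind were called in these fits, 430 with slow fibre markers and 394 with lymphocyte markers, against 1020 without.

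**Figure D2:**
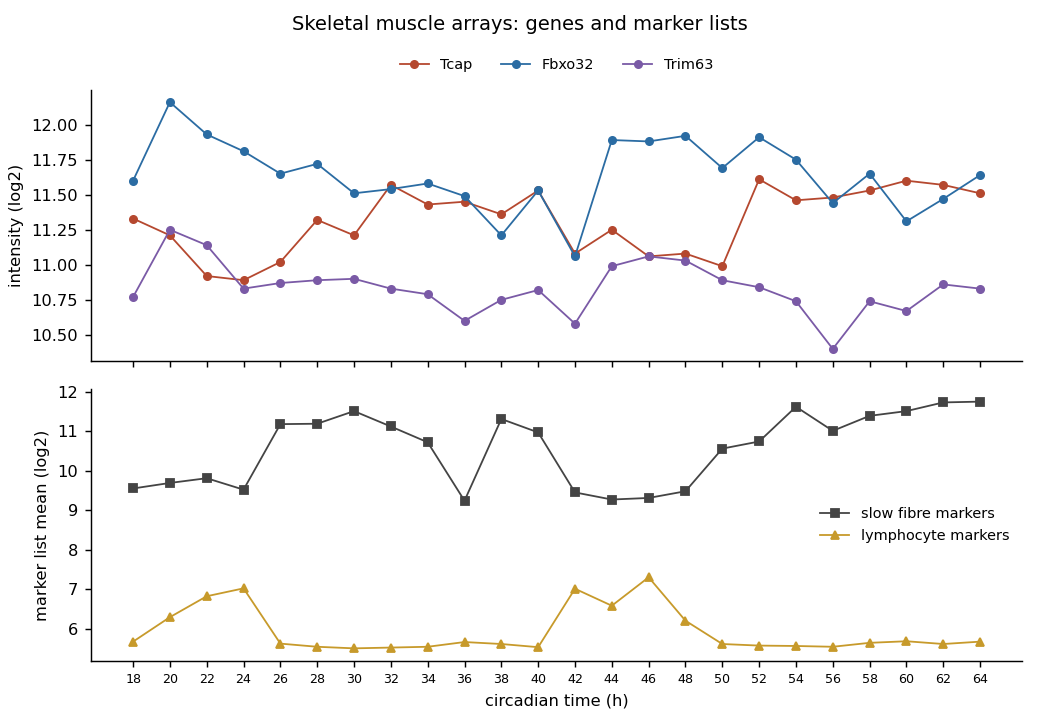
Upper panel, log2 intensity of Tcap, Fbxo32 and Trim63 on the 24 skeletal muscle arrays against circadian time in h, 1 point per array. Lower panel, mean log2 intensity of the slow fibre and lymphocyte marker lists on the same arrays. The slow fibre mean steps between 9.24 and 11.75, and the lymphocyte mean reaches 6.20 or more only at CT20 to CT24 and CT42 to CT48.

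The order of levels over tissues is a description, because the deposited values appear to have been normalized within each tissue. Tcap had its highest mean in skeletal muscle (11.31 ± 0.23, SD, 24 arrays) and then heart (10.26 ± 0.65), and their ranges overlapped since heart reached 11.08 at its peak. Aorta (7.36 ± 0.49) and brown adipose (7.28 ± 0.63) followed and did not differ beyond their spread, then lung (6.38 ± 0.15), and the other 7 tissues lay between 5.27 and 5.96. Fbxo32 was highest in skeletal muscle (11.64 ± 0.25), then heart (10.51 ± 0.15) and aorta (8.75 ± 0.23), with no overlap between the first 3. Its lower neighbours lung (8.15), brown adipose (8.09) and hypothalamus (7.89) each lay within the larger SD of the next in order, and kidney was lowest (6.79 ± 0.09).

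Trim63 had 10.84 ± 0.18 in skeletal muscle and 10.43 ± 0.15 in heart, whose ranges overlapped. Kidney, aorta and brown adipose came next at 6.64, 6.62 and 6.49, within their spread of each other. Mstn stood at 10.87 ± 0.18 in skeletal muscle and at no more than 5.50 in the mean of any other tissue, with the highest single array elsewhere at 6.70 in brown adipose (CT42). Myod1 stood at 8.67 ± 0.37 in skeletal muscle, did not overlap with the next tissue, brown adipose (6.69 ± 0.22), and lay between 5.94 and 6.54 in the other 10. Fbxo21 was ordered otherwise, with liver first (10.51 ± 0.49), then hypothalamus (10.24 ± 0.06), brown adipose (10.16 ± 0.44) and cerebellum (9.94 to 10.09), each within the larger SD of the next in order. Heart was 9th (9.09 ± 0.07), skeletal muscle 11th (8.64 ± 0.14) and lung last (8.37 ± 0.07).

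**Figure D3:**
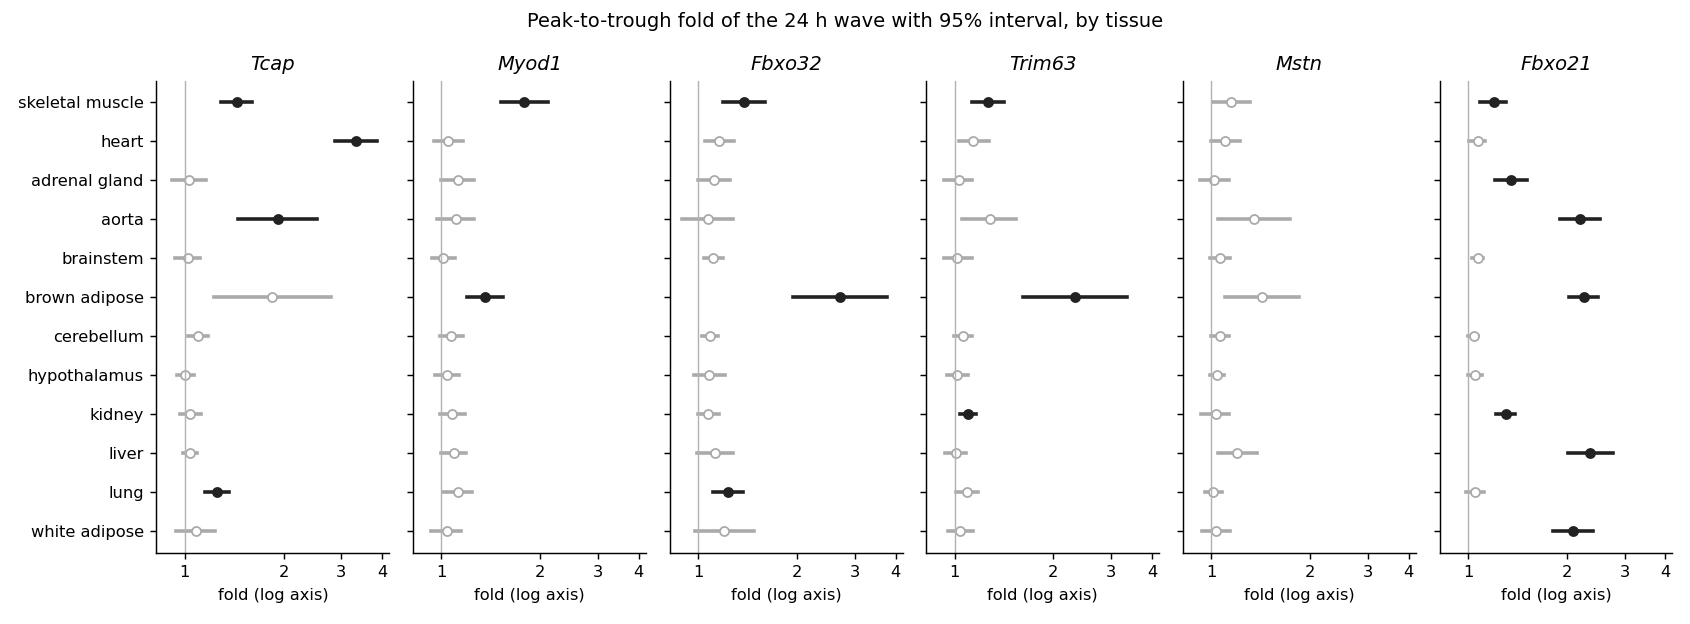
Fitted peak-to-trough fold of the 24 h wave (horizontal log axis) with its 95% interval for each of the 6 genes in each of the 12 tissues. Filled points are waves with an adjusted p under 0.05. Fbxo21 has filled points in 7 tissues and Mstn in none.

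In the other 10 tissues 13 of 60 pairs of gene and tissue were called, and 6 of them were Fbxo21. By tissue the genes called were 1 of 6 in adrenal gland (5.89% of all genes), 2 of 6 in aorta (5.09%), 4 of 6 in brown adipose (16.5%), 2 of 6 in kidney (25.8%), 1 of 6 in liver (26.8%), 2 of 6 in lung (20.9%) and 1 of 6 in white adipose (4.85%). None of the 6 was called in brainstem (4.78%), cerebellum (5.49%) or hypothalamus (1.8%). In these 3 brain regions 2, 2 and 0 genes had an unadjusted limma p under 0.05, and the rank test called 0 in each. The share of all genes under that unadjusted p is not given here, so these counts are a description. Over all genes, 359 were called in hypothalamus, against 229, 231 and 219 without CT28, CT52 or CT54.

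Fbxo21 was the gene with daily waves in the most tissues, and its peaks fell in the former light phase, from CT5.92 to CT9.84. In liver it ran from 9.87 at CT62 through a median of 10.39 to 11.36 at CT54, with high arrays at CT28 to CT36 and at CT52 to CT56 and low ones at CT38 to CT48. The wave was 2.36-fold (2.02 to 2.76, peak CT6.30, SE 0.335 h, adjusted p = 1.94e-08). In brown adipose it ran from 9.37 through 10.15 to 10.76, with a fold of 2.25 (2.03 to 2.49, peak CT7.67, adjusted p = 2.83e-11) and 92% of the variance in the wave. Arrays 24 h apart differed there by a median of 0.06. In aorta the values were 9.01, 9.60 and 10.45 (lowest, median and highest), and the fold was 2.20 (1.91 to 2.53, peak CT7.22, adjusted p = 6.79e-08).

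White adipose had the latest of these peaks. There Fbxo21 ran from 9.16 through 9.53 to 10.41, with a fold of 2.09 (1.82 to 2.40) and a peak at CT9.84 (SE 0.349 h, adjusted p = 5.85e-07). Smaller waves were called in adrenal gland (1.35-fold, 1.21 to 1.51, peak CT7.09, adjusted p = 0.00264) and kidney (1.31-fold, 1.22 to 1.39, peak CT5.92, adjusted p = 1.73e-06). The adrenal wave was not called on CT42 to CT64 alone (fold 1.41, adjusted p = 0.316, range over 13 alternatives 7.59e-07 to 0.316). In brainstem the fold was 1.07 (1.03 to 1.11) and missed at an adjusted p of 0.0505. Lung (1.05-fold), hypothalamus (1.05-fold) and cerebellum (1.04-fold) were not called. The test among the 12 tissues gave an adjusted p of 1.42e-53 for Fbxo21. The aorta arrays also held brown adipocyte markers at 9.85 to 10.92, against 10.58 to 11.43 in brown adipose, and their part in the aorta wave was not tested.

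**Figure D4:**
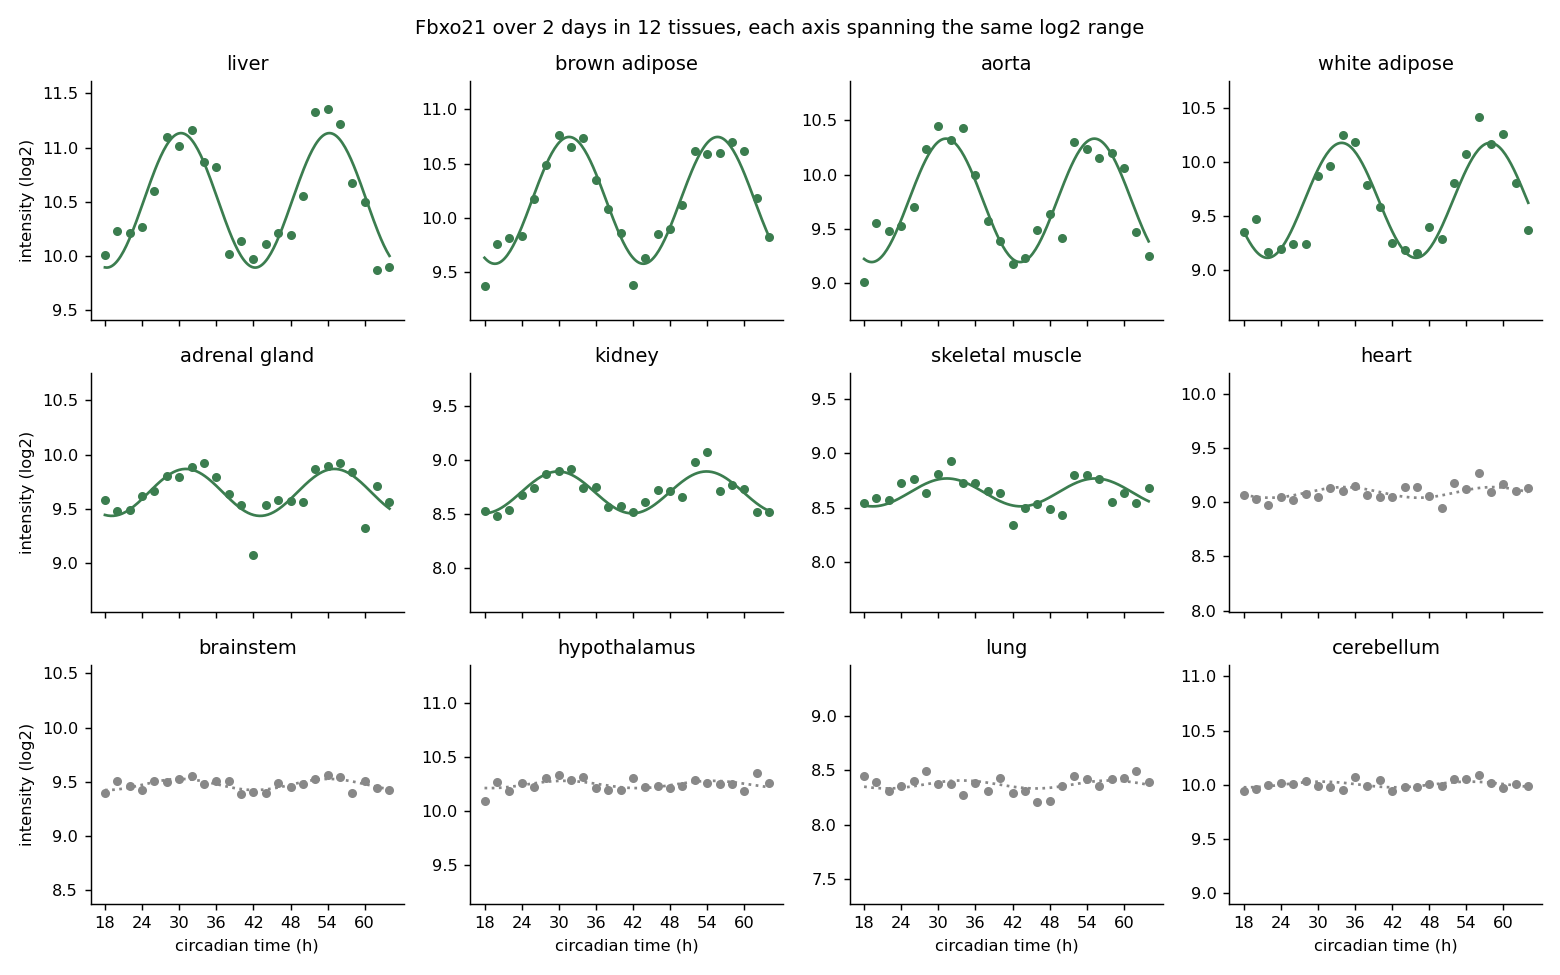
Log2 intensity of Fbxo21 (vertical axis, the same span in each panel) against circadian time in h in the 12 tissues, 1 point per array, with the fitted 24 h wave. Green solid lines are called waves and grey dotted lines are not called. The waves of liver, brown adipose, aorta and white adipose span more than 2-fold.

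Brown adipose was the tissue besides skeletal muscle in which most of the muscle genes varied, and its arrays also carried changing levels of skeletal muscle markers. Fbxo32 ran from 7.16 at CT62 through 8.03 to 9.45 at CT20, with a wave of 2.71-fold (1.95 to 3.77, peak CT22.4, adjusted p = 0.000285). Trim63 ran from 5.70 through 6.23 to 7.96, with a wave of 2.33-fold (1.62 to 3.35, peak CT21.7, adjusted p = 0.00426). Myod1 ran from 6.39 through 6.63 to 7.20, with a wave of 1.36-fold (1.20 to 1.54, peak CT20.5, adjusted p = 0.00252). All 3 were high at CT18 to CT24 and again at CT42 to CT46. Tcap ran from 6.24 through 7.34 to 8.49 with a fold of 1.85 (1.23 to 2.80, adjusted p = 0.084) and was not called, nor was Mstn (fold 1.43, 1.10 to 1.85, adjusted p = 0.124). Without CT26, CT56 or CT64 Tcap passed (adjusted p 0.0459, 0.0368 and 0.0402), and without CT56 Mstn did (0.0192).

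The mean of the 12 skeletal muscle markers in brown adipose ran from 7.07 at CT36 to 11.89 at CT44. All 12 were called (against 16.5% of all genes in this tissue), with a median fold of 7.66, and the list mean peaked at CT23.0. The 10 arrays with the highest Fbxo32 all had a marker mean above 10. With this mean as a covariate the fold of Fbxo32 was 1.61 (1.26 to 2.07, adjusted p = 0.0273), Myod1 1.23 (1.11 to 1.35, adjusted p = 0.0153) and Trim63 1.44 (1.12 to 1.86, adjusted p = 0.124, not called). The fold of Fbxo21 was 2.18 (1.95 to 2.43, adjusted p = 2.53e-10) in that fit, close to its fold without the covariate. Slow fibre markers varied in brown adipose too, with 9 of 9 called, a median fold of 6.76 and a list mean of 6.83 to 10.24. No fit in brown adipose held them as a covariate, so their part in these waves was not tested. The Trim63 call was also lost by the rank test (adjusted p = 0.0596), in a range over 12 alternatives of 9.27e-07 to 0.124.

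**Figure D5:**
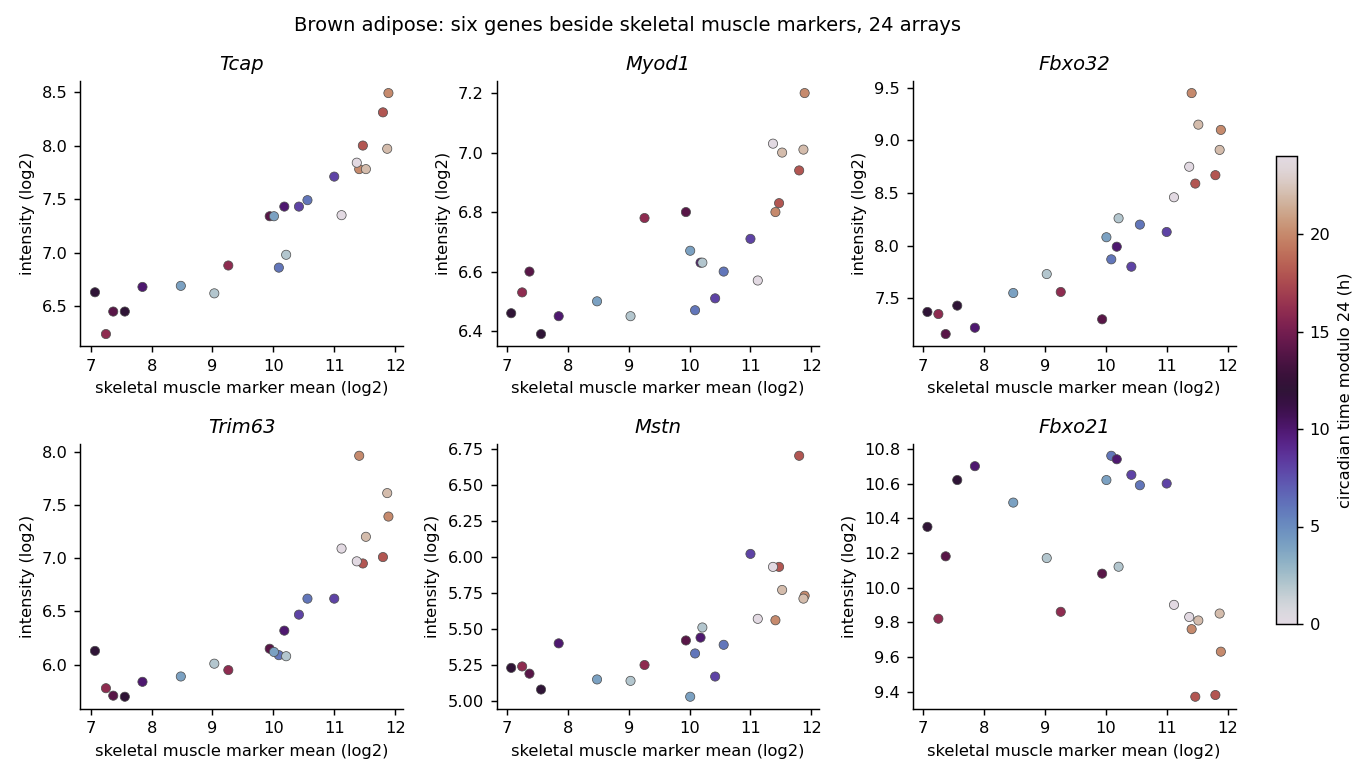
Log2 intensity of each of the 6 genes (vertical axes) against the mean log2 intensity of the 12 skeletal muscle markers (horizontal axes) on the 24 brown adipose arrays, coloured by circadian time modulo 24 h. The highest values of Tcap, Myod1, Fbxo32, Trim63 and Mstn and the lowest value of Fbxo21 lie at marker means above 11, which the arrays of CT18 to CT24 and CT42 to CT48 hold.

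Tcap also varied in aorta and lung, with peaks near that in heart. In aorta it ran from 6.43 at CT26 through 7.24 to 8.22 at CT36, with a wave of 1.92-fold (1.45 to 2.53, peak CT9.42, adjusted p = 0.00976). On the aorta arrays the mean of 12 heart muscle markers lay between 8.39 and 10.72, with 0 of 12 called by limma (1 unadjusted). That of the skeletal muscle markers lay between 6.81 and 10.45 with a fitted peak at CT10.9 and 1 of 12 called (8 unadjusted). Of all genes 5.09% were called in aorta. With heart markers as a covariate the fold of Tcap in aorta was 2.20 (1.79 to 2.69, adjusted p = 3.13e-05), and with skeletal muscle markers it was 1.68 (1.25 to 2.26) and not called (adjusted p = 0.0844). The rank test (0.0632) and CT42 to CT64 alone (0.644) ended the call as well. In lung Tcap ran from 6.10 through 6.37 to 6.65, with a wave of 1.25-fold (1.15 to 1.36, peak CT9.59, adjusted p = 0.000762). Heart markers lay between 8.26 and 9.13 in lung with a fitted peak at CT3.48 and 5 of 12 called, against 20.9% of all genes. With these markers as a covariate the fold of Tcap was 1.26 (1.17 to 1.37, adjusted p = 0.000308). The lung call was lost on CT42 to CT64 alone (0.075).

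Fbxo32 in lung ran from 7.86 through 8.16 to 8.57, with a wave of 1.23-fold (1.11 to 1.37, peak CT7.40, adjusted p = 0.0138) that neither day alone carried (adjusted p = 0.2 and 0.0773). Trim63 in kidney ran from 6.52 through 6.64 to 6.81, with a wave of 1.10-fold (1.04 to 1.16, peak CT18.2, adjusted p = 0.0268). That call was lost when CT18, CT28, CT42 or CT44 was left out (adjusted p 0.0507 to 0.073).

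The function lists that follow were also chosen with earlier results of these data known, so their shares are a description. Most genes around Tcap at the Z-disc did not pass the test. Of 34 measured Z-disc and titin partners 6 were called in skeletal muscle (17.6%, against 5.12% of all genes) and 7 in heart (20.6%, against 8.64%), and the median fold over all 34 was 1.08 in each, against 1.07 over all genes. In skeletal muscle Fhl2, a LIM protein that binds titin, varied 1.47-fold with a peak at CT11.2 (adjusted p = 0.00848), Ankrd2, a stretch-responsive ankyrin protein, 1.69-fold at CT9.60 (0.0373), and Myom3, an M-band protein of slow and intermediate fibres, 2.02-fold at CT8.90 (0.0115). Pdlim3 varied 1.10-fold at CT21.7 (0.00729). The called genes include Myoz2, which is also one of the slow fibre markers. In heart Ankrd23 varied 1.46-fold with a peak at CT0.0422 (3.56e-07), Myot, the gene of myotilin, 1.39-fold at CT18.2 (0.000439), Mypn, of myopalladin, 1.20-fold at CT20.8 (0.00182) and Ankrd1 1.17-fold at CT6.90 (0.00494). Tcap had a larger fold in heart than any of these 4.

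Of 26 myogenic regulators 5 were called in skeletal muscle (19.2%, against 5.12% of all genes) and 6 in heart (23.1%, against 8.64%). The median fold of all 26 was 1.11 in skeletal muscle and 1.07 in heart, against 1.07 over all genes in each. Myf6, the relative of Myod1 that is kept in adult fibres, varied 1.28-fold in skeletal muscle with a peak at CT16.9 (SE 0.617 h, adjusted p = 0.000806), against CT18.2 for Myod1. Id2, an inhibitor of such factors, varied 1.42-fold with a peak at CT21.0 (0.00741), Eya1 1.20-fold at CT23.7 (0.00852) and the deacetylase Hdac9 1.28-fold at CT4.98 (0.00977). In heart the class IIa deacetylase Hdac4 varied 1.39-fold at CT12.9 (4.98e-07) and Srf 1.25-fold at CT20.4 (0.000178). Hdac9 (1.19-fold, CT23.4) and Hdac7 (1.18-fold, CT20.3) were called in heart too.

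Among 28 other ubiquitin ligases of muscle 2 were called in skeletal muscle (7.14%, near the 5.12% of all genes) and 6 in heart (21.4%, against 8.64%), with median folds of 1.08 and 1.09. Asb2 varied 1.59-fold in skeletal muscle with a peak at CT22.1 (2.81e-08), against CT22.5 for Trim63, and 1.25-fold at CT18.7 in heart (0.000648). Fbxo30, the ligase known as MUSA1, varied 1.37-fold at CT5.29 in skeletal muscle (0.00131). In heart Fbxo31 (1.21-fold, CT14.5), Fbxo40 (1.19-fold, CT20.9) and Smurf2 (1.17-fold, CT22.2) were called.

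The FOXO and glucocorticoid programme includes regulators and targets that change in wasting muscle. Of its 31 genes 6 were called in skeletal muscle (19.4%, against 5.12% of all genes) and 12 in heart (38.7%, against 8.64%). The median folds were 1.10 and 1.12, against 1.07 over all genes in each tissue. In skeletal muscle Foxo1 varied 1.33-fold with a peak at CT17.0 (0.00877) and Glul, the gene of glutamine synthetase, 1.79-fold at CT15.8 (3.95e-07). Fkbp5, a glucocorticoid target, varied 1.51-fold at CT16.1 (0.0114) and Klf9 1.29-fold at CT9.15 (0.000718). Pdk4 (1.59-fold, CT4.77) and Ddit4 (1.62-fold, CT10.6) were called there too. In heart Foxo3 varied 1.35-fold at CT15.0 (1.79e-05), Sesn1 1.30-fold at CT16.3 (2.47e-06), the metallothionein Mt2 1.89-fold at CT10.5 (3.29e-06) and Klf9 1.38-fold at CT10.0 (0.000111).

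Receptors and signal carriers of myostatin and activin held 4 of 26 called genes in skeletal muscle (15.4%, against 5.12% of all genes) and 2 of 26 in heart (7.69%, under the 8.64% of all genes), with median folds of 1.10 and 1.09. Mstn itself was not called. Acvr1b, a type I receptor, varied 1.35-fold with a peak at CT13.4 (0.00497) in skeletal muscle, and Acvr1c 1.62-fold at CT22.3 (0.0111). Smad3, the receptor-activated effector, varied 1.37-fold at CT22.8 in skeletal muscle (7.79e-05) and 1.30-fold at CT21.8 in heart (0.00496). The inhibitor Smad7 varied 1.26-fold at CT18.9 in skeletal muscle (0.0232), and the type II receptor Acvr2a 1.21-fold at CT19.8 in heart (0.00755).

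The opposing growth signals, BMP and insulin, had 3 of 24 genes called in skeletal muscle (12.5%, against 5.12% of all genes). In heart 5 of 24 were called (20.8%, against 8.64%). The median folds were 1.07 and 1.08, against 1.07 over all genes in each tissue. Pik3r1, a regulatory subunit of PI3 kinase, varied 1.68-fold with a peak at CT18.4 in skeletal muscle (8.62e-07). Irs1 peaked at CT21.0 (1.67-fold, 0.00295) and Irs2 at CT5.94 (1.39-fold, 0.00357) there, both adaptors of the insulin receptor. In heart Irs1 varied 1.66-fold at CT23.1 (4.55e-06), Smad6 1.22-fold at CT14.8 (0.00169) and Ppargc1a 1.19-fold at CT17.6 (0.00828). For comparison, 16 of 17 core clock and output genes were called in skeletal muscle (against 5.12% of all genes) and 17 of 17 in heart (against 8.64%). Their median folds were 1.59 and 2.26, with Arntl at 3.95-fold (peak CT22.7) and 7.67-fold (peak CT23.2), in the same order.

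The genes whose profiles were most like those of the 6 are given as a description, by Pearson's r over the 24 arrays of a tissue, which share a time course and a normalization. Tcap was most like the clock output gene Tef (0.889), the clock gene Per3 (0.854) and Zc3h6 (0.845) in skeletal muscle, and most like Nr1d2 (0.945), Dbp (0.943) and Ppat (0.915) in heart. Myod1 in skeletal muscle was most like Cntfr (0.889), Slc38a2 (0.864) and Ankrd9 (0.829). Fbxo32 was most like Trim63 (0.768), Cpeb1 (0.762) and Klhl38 (0.741) in skeletal muscle, and Klhl38 (0.865), Crbn (0.809) and Gadd45b (0.786) in heart. Klhl38 was thus among the first 3 in both tissues.

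Trim63 in skeletal muscle was most like Dennd2c (0.818), Otub2 (0.780) and Fam53b (0.769). Mstn was most like Rnf126 (0.853), Lrig1 (0.850) and Musk (0.849), the last being the receptor kinase of the neuromuscular junction, which was itself called (1.34-fold, peak CT12.6, adjusted p = 0.0126). Fbxo21 was most like Tns2 (0.811), Slc25a22 (0.801) and Igf1r (0.771). In heart, where neither was called, the nearest genes of Myod1 and Mstn were Chga (0.798) and the olfactory receptor Olfr132 (0.849). Trim63 in heart was most like Asxl1 (0.790), and Fbxo21 most like Smpd2 (0.877).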

How the data were processed

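Gene expression was measured on 288 arrays, 24 per tissue, with no replicates. The values come from Affymetrix Expression Console and GCRMA, per the submitters' processing notes, and their versions and order are not given in the sources used here. The deposited values are intensities on a linear scale, from 6.9 to 45307.8, and array medians of 95.2 to 106.6 with tissue-specific spreads made the authors' normalization look separate for each tissue. Genome build and probe summary are not given in the sources used here.

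Intensities were taken to log2 with no pseudocount. The planned tests assume log2 values, so this came first. Among 35556 probe sets, 21789 carried 1 symbol, 1621 several and 12146 none, and the brightest probe set stood for each of 999 genes with more than 1, which left 19938 genes. Per tissue, a 24 h cosine and sine were fitted with limma 3.58.1 in R 4.3.3 (moderated F test, variance trend, Benjamini-Hochberg). Fold is the fitted peak over trough. Lines and 12 h waves were tested beside the 24 h pair, and differences between tissues in 1 fit to all arrays. Levels were not tested between tissues. An array stood apart where a marker mean was off its tissue's median by more than 1 log2 unit and 5 scaled median absolute deviations, or where its correlation to the others was low by over 0.003 and 5 such deviations. Correlations used 100000 permutations.

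The 6 genes, the function lists and the marker lists were chosen with earlier results of these data known. Genes named from a list are up to 4 called ones per tissue with the lowest adjusted p. Pdk4, Ddit4 and Myoz2, called in skeletal muscle, are named outside that rule. Like genes are the 3 with the highest r, without predicted or clone names. The wave fit was tested on simulated data. Alternatives changed the test, the scaling, the arrays and the covariates. The arrays' scanner files were not used here.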

Additional observations from a re-analysis of the deposited data

Results flagged for a closer look

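The wave differed between skeletal muscle and heart, by the interaction of tissue and wave in the limma fit to 288 arrays, for Tcap (adjusted p = 5.97e-08), Myod1 (9.51e-09) and Fbxo32 (0.0157). With the 48 arrays of the pair only, the adjusted p of the same test was 2.72e-08, 0.000463 and 0.00482, in the same order. Tcap was the gene of the 3 with the larger fold in heart (3.33 against 1.44), while Myod1 (1.79 against 1.05) and Fbxo32 (1.38 against 1.16) had the larger fold in skeletal muscle.

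Among the 12 tissues the wave differed for Fbxo21 (adjusted p = 1.42e-53), Tcap (5.01e-26), Fbxo32 (3.02e-17), Myod1 (1.15e-12), Trim63 (2.71e-12) and Mstn (0.00174). Mstn passed this test although its wave was called in none of the 12 tissues, where its lowest adjusted p was 0.0987 in liver. The fit shares 1 estimate of the spread over all tissues, while the SD of Mstn ran from 0.06 in hypothalamus to 0.38 in brown adipose. How far this unequal spread moved its p was not tested, so 0.00174 is not firm evidence of a difference.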

How the results depend on the processing

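Of the counts over the 6 genes, those that moved by over 1.5 times did so in few settings. In skeletal muscle 5 genes were called, against 3 by the rank test, 3 on CT18 to CT40 alone and 1 on CT42 to CT64 alone. The 3 on CT18 to CT40 were Tcap, Myod1 and Mstn, and Mstn was not among the 5. There were 2 with lymphocyte markers and 2 with slow fibre markers as a covariate, and 3 to 5 with each array left out in turn. In heart 1 was called in every setting, and 1 to 2 with each array left out, since Fbxo32 passed without CT46. In the other 10 tissues 13 pairs were called, against 8 on CT18 to CT40 and 6 on CT42 to CT64. A fit to 1 day holds 12 arrays, and the cause of the other losses was not tested. No called wave moved its peak by over 6 h. The counts of genes whose wave differs, 3 between skeletal muscle and heart and 6 among the 12 tissues, were the same in all alternatives run for each, and the fit paired by time point was run for skeletal muscle against heart. Slow fibre and heart muscle covariates, and leaving out arrays in the other 10 tissues, were chosen after seeing the data.

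Over all genes, skeletal muscle had 1020 calls, against 344 (rank test), 2085 (array weights), 161 and 216 (1 day each), 394 (lymphocyte covariate) and 430 (slow fibre covariate). Heart had 1723, against 745 and 691 on 1 day each. For the other tissues the counts with 1 day each were 335 and 59 in adrenal gland (1174 with both days), 231 and 133 in aorta (1015), 315 and 107 in brainstem (953), 760 and 803 in brown adipose (3299), 90 and 256 in cerebellum (1094), 3 and 62 in hypothalamus (359), 2136 and 1561 in kidney (5147), 1145 and 2914 in liver (5343), 1612 and 2126 in lung (4176) and 83 and 308 in white adipose (966). The rank test called 567 in aorta, 242 in brainstem, 432 in cerebellum, 233 in hypothalamus and 569 in white adipose. Array weights gave 3153 in adrenal gland, 1879 in aorta, 1121 in hypothalamus and 2024 in white adipose. Without arrays that stood apart there were 743 in adrenal gland and 670 in hypothalamus, and the skeletal muscle marker covariate gave 582 in adrenal gland and 1963 in brown adipose.

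With 24 arrays per tissue and no replicates, a wave that was not called is not shown to be absent, and the interval of its fold gives the sizes the data allow. Dim genes cannot be told from background, since no detection call was used, and 42 pairs of gene and tissue lay under the tissue median and were not tested once dim genes were left out. Among these pairs were the called waves of Tcap in lung, Trim63 in kidney, and Myod1 and Trim63 in brown adipose.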

Other observations

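Some pairs of the 6 genes were correlated, in either direction, after the 24 h wave was removed. In heart Tcap and Fbxo21 had r = 0.55 and rho = 0.61 (adjusted permutation p = 0.0351 and 0.0211 over 30 pairs, 24 arrays, r = 0.36 without the 2 farthest arrays). Mstn and Fbxo21 in heart had r = -0.56 and rho = -0.65 (0.0338 and 0.0123, r = -0.59 without 2 arrays), where Mstn lay between 5.26 and 5.80. That is percentile 21.5 of all genes in the mean, among the dim genes that cannot be told from background. This correlation is therefore not shown to be one between expressed genes.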
